A study of Sus scrofa with 48 samples.

Results

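Muscle takes its own proteins apart by several routes, and 10 genes of the ubiquitin and autophagy routes were described here: the ubiquitin ligases FBXO32 and TRIM63, the transcription factors FOXO1 and FOXO3, and the autophagy genes ULK1, BECN1, MAP1LC3B, GABARAPL1, SQSTM1 and BNIP3. They were chosen by name, and a probe was taken for a member when its array gene name or the bracketed symbol of its array description matched. By this rule 8 of the 10 genes had probes, out of 11195 gene symbols named on the array. BNIP3 and MAP1LC3B had none and were not analysed here. The 8 genes had 24 probes, of which 23 were kept because the scanner software flagged their signal as clearly over background on 12 or more of the 48 arrays. The probe left out was 1 of 5 for FOXO1, well above background on 3 arrays. Of the kept probes 22 passed on all 48 arrays, and 1 ULK1 probe passed on 43.

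In the ubiquitin route, a ligase marks a protein with ubiquitin and the proteasome then breaks it down. FBXO32 (atrogin-1) and TRIM63 (MuRF1) are ligases found largely in striated muscle, where their transcripts rise in fasting, disuse and disease. In autophagy, a membrane closes around cytoplasm or organelles and fuses with a lysosome. FOXO factors, when they are not held in the cytoplasm by insulin signalling through AKT, switch on genes of both routes.

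The samples were longissimus muscles of growing Large White pigs from a low and a high line bred for opposite residual feed intake (RFI), how much more or less a pig eats than its growth and upkeep would call for. Low RFI pigs (RFIneg) are the more efficient line and high RFI pigs (RFIpl) the less efficient one. Pigs of each line ate freely a diet high in fat and fiber (HF) or one low in both (LF), giving 4 groups of 12 pigs and 24 pigs per line. Each pig had 1 array of 1 colour, and the age of the pigs is not given in the labels. Each line is a single selected population, so a difference between lines cannot be told apart from drift between them.

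Levels below are log2 processed signals minus the mean of all kept probes on the same array, so 1 unit is a doubling and 0 is the array's mean. Differences are on the same log2 scale. A difference was called when its limma p, adjusted by Benjamini-Hochberg over all 42125 kept probes, was under 0.05. Median signal was between 52.8 and 107.9 across arrays, and no spot was saturated. The 77 probes of 11 skeletal muscle fibre genes were well above background on every array, with a mean level between 8.60 and 9.15 over the 48 pigs. Since whole muscle was used, fewer cells of a type and less RNA per cell cannot be told apart.

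A few probes are shown because some results, such as that of BECN1, depended on which probe was read. Each probe is 60 bases long, and its first 30 are given from 5′ to 3′. FBXO32 and BECN1 are shown first, for probes that varied alike and for a pair that did not.
FBXO32 A_72_P407903: agagggcaaaactcgaacacaagataggat
FBXO32 A_72_P302954: aaacttctgagataagtcattgagaggaca
BECN1 A_72_P302859: gactttctttattccttaggggattgtttg
BECN1 O4451: attttcagtgacattgagctgagtgtccag
A pair of ULK1 probes covered nearly the same sequence, shifted by 1 base, and capitals mark where they differ.
ULK1 A_72_P487880: ttcccattcagcgtCcagagctaggcctTg
ULK1 O6385: cttcccattcagcgtAcagagctaggcctC
They differed at 2 of 59 aligned bases, both within the stretch printed. No other kept probes of the same gene shared a run of more than 8 bases on either strand.

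The lines differed at 1 of the 23 member probes, a BECN1 probe that was higher in high RFI pigs. Over all probes 16.4% were called between lines, 6.57% higher and 9.85% lower in high RFI pigs, and 1 of 23 member probes is 4.35%. The median line difference of the 23 member probes was 0.01, beside -0.03 over all probes, and 12 member probes lay above 0. At an unadjusted p under 0.05 there were 3 of 23 member probes, against 31% of all probes.

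**Figure D1:**
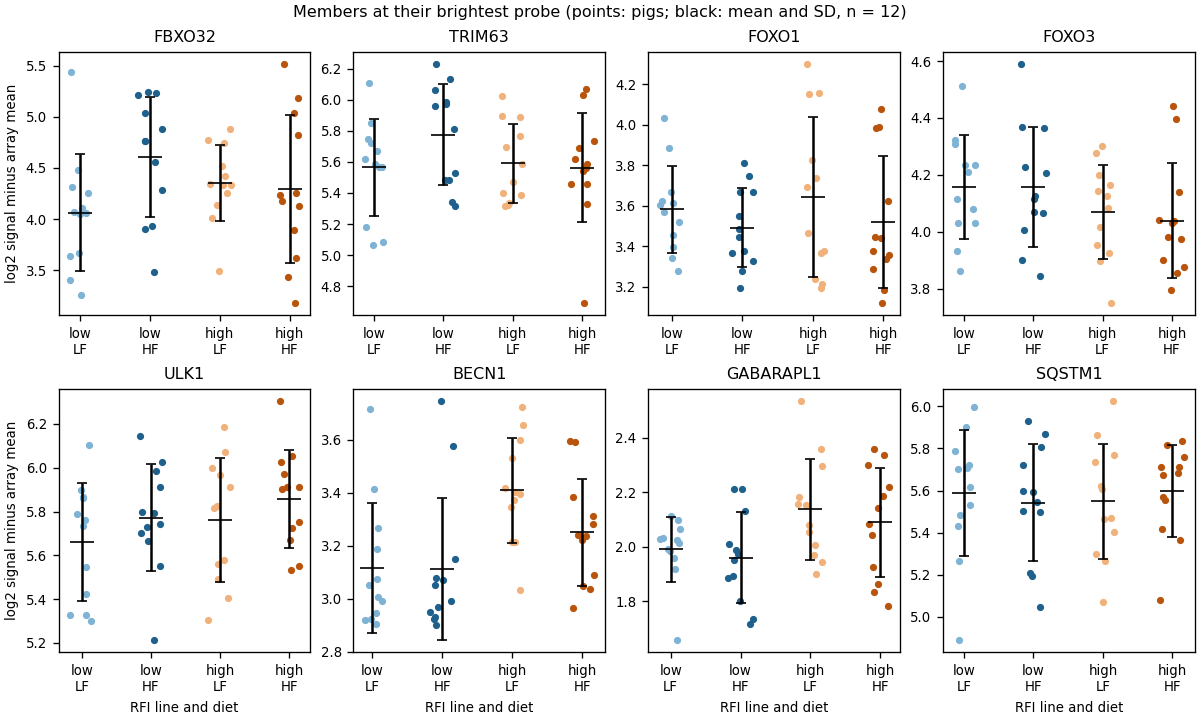
Level of each of the 8 measured members at its brightest probe (log2 signal minus the array's mean, vertical axis) in the 4 groups of line and diet (horizontal axis), with 1 point per pig and black bars for the mean and SD of 12 pigs. BECN1 is higher in most pigs of the high RFI line, FBXO32 is spread widest between pigs, and groups overlap in every panel.

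FBXO32 was the member whose level differed most between pigs. At its brightest probe the 12 low RFI pigs on LF had a lowest level of 3.26, a median of 4.06 and a highest of 5.44. Low RFI pigs on HF ran from 3.48 through 4.76 to 5.24. High RFI pigs on LF ran from 3.49 through 4.34 to 4.88, and those on HF from 3.18 through 4.21 to 5.52. All 4 groups overlapped, and the group of low RFI pigs on HF had the highest median. From the lowest to the highest of the 48 pigs, the FBXO32 signal at this probe changed 5.05-fold. The SD between pigs of a group was 0.55 to 0.64 over the 5 FBXO32 probes, against a median of 0.26 for all probes, which put FBXO32 between the 88.3rd and 92.4th percentile of spread. All 5 probes ordered the pigs alike, with Pearson's r of 0.95 to 0.99 between probes over the 48 pigs after group means were removed. This is agreement between probes of 1 gene on the same arrays and not a repeat of the measurement in other pigs.

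Neither line nor diet gave a called FBXO32 difference. High minus low RFI was between -0.05 and 0.14 at the 5 probes. At the brightest one it was 0.29 on 1 scan day and -0.32 on the other, and ran from -0.71 to 1.09 over the 6 slides. HF minus LF was between 0.21 and 0.24 at the 5 probes. At the brightest probe the diet difference was 0.24 (SE 0.16, 95% interval -0.08 to 0.57, limma adjusted p = 0.562). Within the low RFI line, HF pigs had 0.48 to 0.56 more than LF pigs at the 5 probes. At the brightest one this was 0.55 (SE 0.23, 95% interval 0.08 to 1.01), with an unadjusted p of 0.0216 and a limma adjusted p of 0.330, and 9 of 12 HF pigs lay above the LF median. Each of the 6 slides, with 2 pigs of each group, had this difference above 0 at that probe, from 0.04 to 1.03, as at 2 other FBXO32 probes. At A_72_P110111 and O13679 it was above 0 on 5 of 6 slides, with lowest values of -0.05 and -0.08. In the high RFI line the same diet difference was -0.09 to -0.06. The line by diet interaction was -0.65 to -0.54 at the 5 probes. Its unadjusted p was between 0.0659 and 0.121 and its adjusted p was 0.999, so the diet difference was not shown to depend on line.

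**Figure D2:**
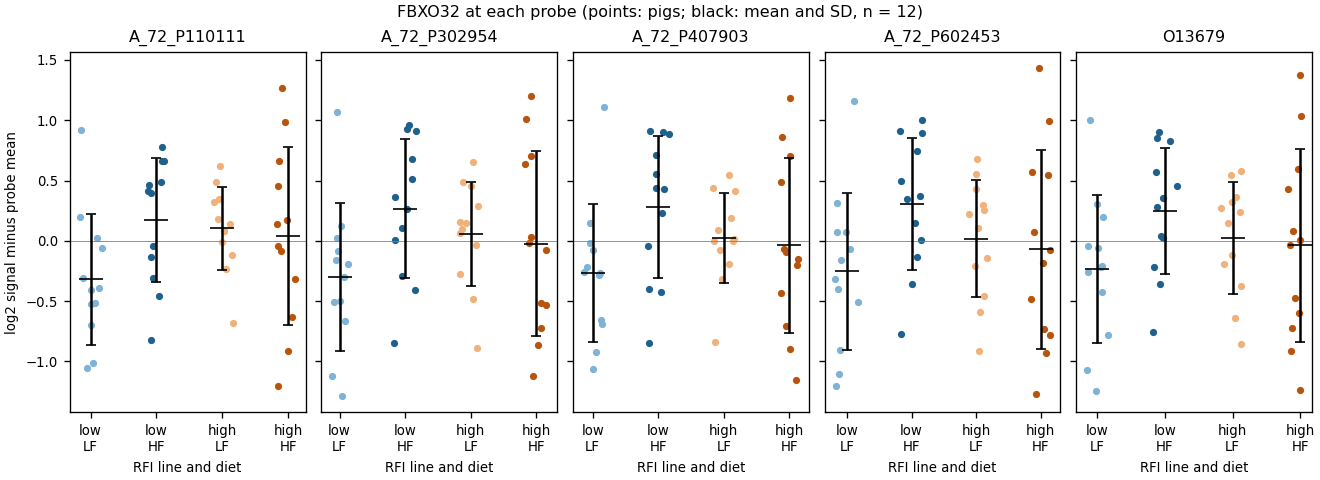
FBXO32 at each of its 5 probes (log2 signal minus the probe's mean over 48 pigs, vertical axis) by line and diet (horizontal axis), with 1 point per pig and black bars for the mean and SD of 12 pigs. The same pattern of groups appears in each panel, with HF above LF in low RFI pigs by 0.48 to 0.56 and overlapping points throughout.

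TRIM63, the other atrophy ligase, which marks thick-filament proteins of the sarcomere, had smaller differences. At its brightest probe low RFI pigs on LF ran from 5.06 through a median of 5.60 to 6.11, and low RFI pigs on HF from 5.32 through 5.89 to 6.23. High RFI pigs ran from 5.32 through 5.53 to 6.03 on LF and from 4.69 through 5.57 to 6.07 on HF. The groups overlapped over most of their range. The line difference was -0.09 at both probes, and the diet difference was 0.09 and 0.16. In low RFI pigs HF exceeded LF by 0.21 at both TRIM63 probes (limma adjusted p 0.533 and 0.653), and neither was called.

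Of the FOXO factors, FOXO1 showed no called difference. Its brightest probe had medians of 3.59 and 3.46 in low RFI pigs on LF and HF, and of 3.58 and 3.41 in high RFI pigs. The lowest FOXO1 level of any group was 3.12 and the highest 4.30, with overlap among all groups. Line differences at the 4 FOXO1 probes ran from -0.03 to 0.06. Diet differences were -0.11 at 3 of them and 0.04 at the other one.

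High minus low RFI was -0.12 to -0.09 at the 3 FOXO3 probes, and none was called (limma adjusted p 0.205 to 0.469). Its probes did not follow each other between pigs, with r from -0.06 to 0.27. They differed widely in brightness, with mean levels over all pigs of 4.1 at A_72_P375183, 0.54 at A_72_P440351 and -2.58 at O5860. At probe A_72_P440351 alone, the low RFI pigs on HF ran from 0.41 through 0.79 to 1.28, and those on LF from -0.30 through 0.41 to 1.14. All 12 low RFI pigs on HF lay above the LF median there, though the ranges overlapped. That diet difference of 0.37 (SE 0.13) had an unadjusted p of 0.0084 and a limma adjusted p of 0.240. At the brightest FOXO3 probe the same difference was 0.00 (SE 0.08). High minus low RFI at A_72_P440351 was -0.32 on HF (unadjusted limma p = 0.020, adjusted 0.126) and 0.08 on LF. The line by diet interaction at that probe was -0.41 (SE 0.19, unadjusted limma p = 0.037, adjusted 0.999). Its line difference was therefore not shown to depend on diet.

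ULK1 is the kinase that starts autophagy. At its brightest probe the medians were 5.75 and 5.77 in low RFI pigs on LF and HF, and 5.82 and 5.91 in high RFI pigs. All 4 groups overlapped, between a lowest ULK1 level of 5.21 and a highest of 6.30. The line difference there was 0.09 (SE 0.07, limma adjusted p = 0.404). The near-identical pair of ULK1 probes shown above varied together between pigs (r = 0.87). Their line differences were -0.01 (95% interval -0.21 to 0.20) at A_72_P487880 and 0.16 (95% interval 0.002 to 0.317) at O6385. The latter had an unadjusted limma p of 0.0467 and an adjusted p of 0.154, and neither was called.

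BECN1 encodes beclin 1, part of the lipid kinase complex that nucleates the autophagosome. At probe A_72_P302859 low RFI pigs ran from 2.91 through 3.03 to 3.72 on LF and from 2.90 through 3.02 to 3.75 on HF. High RFI pigs ran from 3.03 through 3.40 to 3.72 on LF and from 2.97 through 3.24 to 3.60 on HF. Most high RFI pigs were above the middle of the low RFI pigs, and the ranges of the lines overlapped almost wholly. The line difference was 0.22 (SE 0.07, 95% interval 0.08 to 0.35), a 1.16-fold level, with a limma adjusted p of 0.0209. Of the 24 pigs of the high line, 23 had more than the low RFI median and none exceeded the highest low RFI pig. It stayed called with any 1 of the 48 pigs left out, at 0.20 to 0.24. Without the filter on dim probes it was 0.22 with an adjusted p of 0.0551. On the 2 scan days it was 0.21 and 0.22, and 5 of 6 slides were above 0, from -0.32 to 0.53.

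The other BECN1 probe, O4451, did not show this. Its medians were -2.47 and -2.46 in low RFI pigs on LF and HF and -2.55 and -2.56 in high RFI pigs, and its line difference was -0.08 (SE 0.11, limma adjusted p = 0.670). Between pigs of a group the 2 BECN1 probes ran opposite ways (r = -0.32), so the call belongs to 1 probe and was not shown for the gene as a whole. O4451 was far dimmer, with a mean level of -2.50 over all pigs beside 3.22 at A_72_P302859, though well above background on all 48 arrays. Its HF minus LF difference was -0.48 on 1 scan day and 0.24 on the other. Which of the 2 probes reads BECN1 better was not tested. With the 2 probes averaged, no member was called between lines, and the smallest adjusted p was 0.138.

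Some marker probes of other cells were also called between lines, where 16.4% of all probes were called. Of 20 probes of 7 leukocyte genes, 8 were called (40%), from 3 of the 7 genes, and all 8 were higher in high RFI pigs. The median difference of the 20 probes was 0.44. The mean level of the leukocyte list ran from -2.62 to -0.93 and from -2.20 to -0.70 in low RFI pigs on HF and LF, and from -2.17 to 0.77 and from -1.83 to -0.08 in high RFI pigs. Of 29 adipocyte probes 8 were called higher (27.6%), all of 1 gene. Of 77 fibre probes 17 were called lower (22.1%), from 5 of 11 genes. Fibroblast markers had 4 of 26 probes called (15.4%), from 2 of 6 genes and all higher (median 0.18). Endothelium had 2 of 16 (12.5%), both higher and of 1 gene, and Schwann cell markers 1 of 3, lower. The fibroblast and endothelium shares lay below the 16.4% of all probes. No satellite cell or erythroid probe was called, with 1 of 2 and 0 of 2 at an unadjusted limma p under 0.05. Between diets no marker probe was called by limma, though 11 of 20 leukocyte probes had an unadjusted p under 0.05, with a median HF minus LF of -0.35. Leukocyte markers were not absent, with 11 probes well above background on all 48 arrays. Their part in the BECN1 difference was not tested.

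GABARAPL1 belongs to the ATG8 family, small proteins that are attached to the autophagosome membrane. Its brightest probe ran from 1.66 through 2.02 to 2.11 in low RFI pigs on LF and from 1.72 through 1.96 to 2.21 on HF. In high RFI pigs it ran from 1.90 through 2.12 to 2.54 on LF and from 1.78 through 2.11 to 2.36 on HF. The groups overlapped, and 7 of 24 high RFI pigs exceeded every low RFI pig. The line difference was 0.14 (SE 0.05, 95% interval 0.04 to 0.24), with a limma adjusted p of 0.0525, so it was not called. The second GABARAPL1 probe gave 0.12 (SE 0.09, adjusted p = 0.354). The brighter probe was called in 9 alternative fits, with a limma adjusted p from 0.0227 to 0.0477, and reached 0.0893 without the filter on dim probes.

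SQSTM1 (p62) is a receptor that ties ubiquitin-marked cargo to the autophagosome. Its single probe had medians of 5.66 and 5.57 in low RFI pigs on LF and HF and of 5.54 and 5.68 in high RFI pigs. The groups covered nearly the same range, from 4.89 to 6.02 in all. The line difference was 0.01 (95% interval -0.15 to 0.16) and the diet difference 0.00 (95% interval -0.15 to 0.16).

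**Figure D3:**
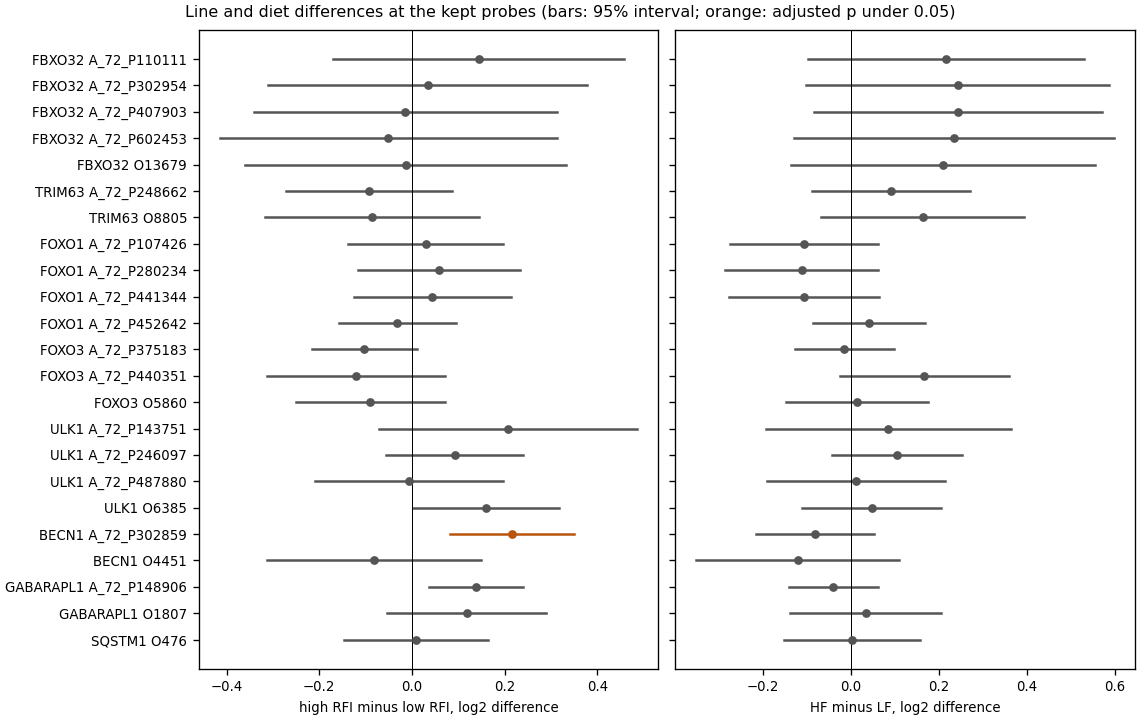
Line difference (left, high minus low RFI) and diet difference (right, HF minus LF) in log2 units at the 23 kept member probes, with 95% intervals, and orange for a limma adjusted p under 0.05. The single orange bar is BECN1 A_72_P302859 at 0.22, and all 5 FBXO32 probes lie above 0 for diet with intervals that hold 0.

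No member probe was called between diets by limma, against 0.42% of all probes, and none of the 23 reached an unadjusted p under 0.05, against 13.1% of all probes. The median diet difference was 0.04, beside 0.00 over all probes. The interaction gave 0 calls by limma in members, as in all probes (0% of 42125), with 1 member probe and 4.45% of all probes at an unadjusted p under 0.05. Between lines on the HF diet, 0 member probes were called against 6.39% of all probes, with 1 at an unadjusted p under 0.05 against 24.2% of all probes. On the LF diet, 0 were called against 2.47%, with 2 at an unadjusted p under 0.05 against 16.5% of all probes. There BECN1 A_72_P302859 was at 0.29 (SE 0.09, limma adjusted p = 0.0820). Between diets in low RFI pigs, 0 were called against 0.199%, with 5 (21.7%) at an unadjusted p under 0.05 against 11.6% of all probes. Of those, 4 were FBXO32 probes and 1 was FOXO3. The FBXO32 probes varied alike between pigs (r of 0.95 to 0.99), so the 5 do not stand for 5 separate genes. Between diets in high RFI pigs, 0 were called against 0%, with 0 of 23 at an unadjusted p under 0.05 against 5.47% of all probes.

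The other genes of these routes were read from 7 lists with 143 kept probes. Between lines 24 were called (16.8%, beside 16.4% of all probes), 8 higher and 16 lower in high RFI pigs. That split depended on scaling: with quantile normalization it was 12 higher and 12 lower, with the 75th percentile 12 and 14, with normexp 13 and 13, and with the log2 values as deposited 11 and 11. Between diets limma called 0 of the 143, against 0.42% of all probes, and 15 had an unadjusted p under 0.05, against 13.1% of all probes.

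Among other ubiquitin ligases 3 of 18 probes were called (16.7%, beside 16.4% of all probes), all lower. TRAF6, a ligase of inflammatory signalling, was lower in high RFI pigs by 1.08 at 1 probe (a level of 0.474-fold, SE 0.19, limma adjusted p = 8.84e-05) and by 0.21 at its other probe, and only 2 of 24 pigs of the high line exceeded the median of the low line. FBXO21 was lower at 1 of 5 probes, with a difference of -0.11 that was not called with the 75th percentile (limma adjusted p = 0.0528), with normexp (0.0842) or without the filter (0.129). Among genes of ubiquitin supply and removal, 1 of 7 probes was called (14.3%): USP14, a proteasome-bound deubiquitinase, at -0.21 (SE 0.06, adjusted p = 0.0078). Of 25 probes of FOXO regulators and targets, 4 were called (16%), and all 4 were of CDKN1A, the cell cycle inhibitor p21. CDKN1A was higher in high RFI pigs by 0.52 to 0.56 at its 4 probes, and by 0.56 (SE 0.15, adjusted p = 0.0068) at the one with the smallest p.

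For autophagy initiation and nucleation 3 of 16 probes were called (18.8%, beside 16.4% of all probes), all lower in high RFI pigs. They were ATG101, a subunit of the ULK1 complex (-0.25, SE 0.07), ATG14, which joins the BECN1 complex (-0.23, SE 0.07), and RB1CC1, the scaffold of the ULK1 complex, at 1 of 2 probes (-0.17, SE 0.06). In the ATG8 family and its conjugation 4 of 18 were called (22.2%), all lower. GABARAP was at -0.17 at both probes (adjusted p = 0.0030 at the first), ATG10 at -0.22, and ATG7, the activating enzyme of conjugation, at -0.43 at 1 probe and 0.04 at the other. Only 1 of the 24 high RFI pigs lay above the low RFI median for ATG101, and 0 for ATG10. Quantile normalization ended the calls of RB1CC1 (limma adjusted p = 0.0999) and GABARAP, whose difference fell to -0.08 (adjusted p = 0.136). RB1CC1 was also not called with normexp (adjusted p = 0.137) or with the values as deposited (0.0527), and without the filter on dim probes ATG14, RB1CC1, ATG10, ATG7 and GABARAP were not called (adjusted p up to 0.102).

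Among selective receptors and mitophagy genes 8 of 30 probes were called (26.7%, beside 16.4% of all probes), 3 higher and 5 lower. The 3 higher ones were OPTN, optineurin, a receptor of ubiquitin-marked cargo. OPTN was higher by 0.61 (SE 0.09, 1.52-fold, limma adjusted p = 1.09e-05) at 1 probe, with 23 of 24 high RFI pigs above the low RFI median, and its other 3 probes ran from -0.03 to 0.17. BNIP3L, a mitophagy receptor related to BNIP3, was lower at 3 of 6 probes, by up to 0.25 (difference -0.25, SE 0.05), and its other probes reached 0.14. For lysosome and fusion genes 1 of 29 was called (3.45%): ATP6V0D1, a subunit of the proton pump that acidifies lysosomes, was higher by 0.25 (SE 0.06, adjusted p = 0.0038).

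**Figure D4:**
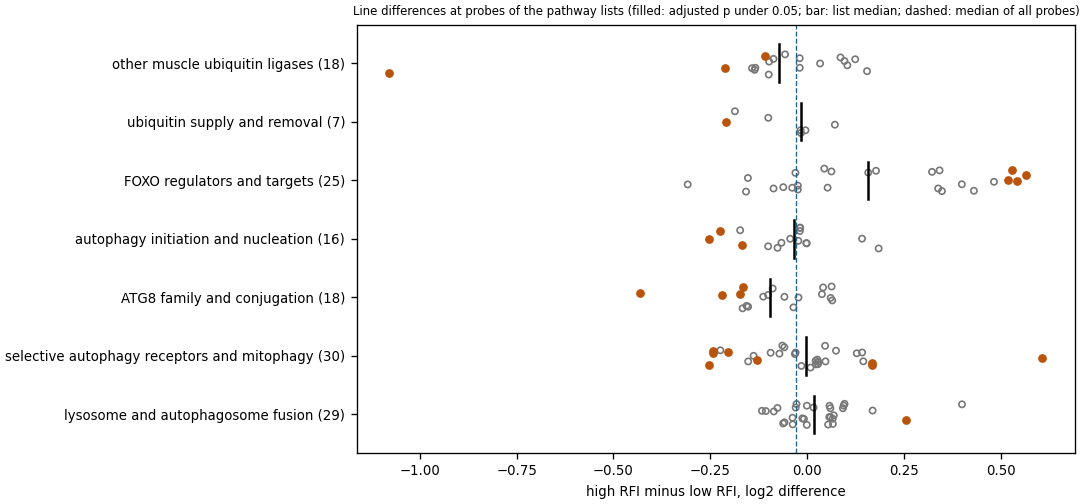
Line difference in log2 units (horizontal axis, high minus low RFI) at the 143 kept probes of 7 pathway lists (rows, with the number of probes in brackets). Filled points had a limma adjusted p under 0.05, black bars are list medians and the dashed line is the median of all probes, -0.03. Filled points lie to the left for initiation and the ATG8 family, and TRAF6 lies farthest left at -1.08.

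Whether the members rose and fell together was read across the 48 pigs, after group means were removed and with each member at its brightest probe. All 28 pairs were tested by permutation within groups (100000 resamples, two-sided), with Benjamini-Hochberg adjustment over the 28. By Pearson's r 2 pairs passed, and by Spearman's rho 0 did, with 8 pairs at an unadjusted Pearson p under 0.05. TRIM63 and SQSTM1 had r = 0.52 (permutation p = 0.00028, adjusted 0.0078) and rho = 0.44 (permutation p = 0.0031, adjusted 0.0538). It was 0.48 without the 2 pigs farthest from the TRIM63 median, 0.36 and 0.57 within the scan days, and 0.15 to 0.84 within the 6 slides. With the probes of each gene averaged it was 0.41 (adjusted permutation p = 0.0560). FOXO1 and FOXO3 had r = 0.46 (permutation p = 0.00095, adjusted 0.0133) and rho = 0.41 (permutation p = 0.0058, adjusted 0.0538). That was 0.50 without the 2 pigs farthest from the FOXO1 median, 0.26 and 0.48 within scan days, and -0.35 to 0.60 within slides. With slide means removed it was 0.34 (adjusted permutation p = 0.0564), and with probe means 0.23 (adjusted 0.287). The 2 atrophy ligases were not closely tied, with r = 0.17 for FBXO32 and TRIM63 (permutation p = 0.278, adjusted 0.519), and FBXO32 and FOXO1 had r = 0.03. FBXO32 was nearest to BECN1, at r = 0.39 (permutation p = 0.0081, adjusted 0.0706). That pair passed with slide means removed (r = 0.54, adjusted permutation p = 0.00154), with normexp (0.44, adjusted 0.0232) and with quantile normalization (0.40, adjusted 0.0498). It did not pass with the 75th percentile (0.38, adjusted permutation p = 0.0726) or with probe means (0.11, adjusted 0.764). BECN1 and GABARAPL1 had the lowest r of the 28 pairs, -0.31 (permutation p = 0.0344, adjusted 0.138). They passed with slide means removed (r = -0.40, adjusted permutation p = 0.0311) and with quantile normalization (-0.39, adjusted 0.0498). They did not pass with the 75th percentile (-0.38, adjusted permutation p = 0.0591), with normexp (-0.34, adjusted 0.125) or with probe means (-0.00083, adjusted 0.996).

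**Figure D5:**
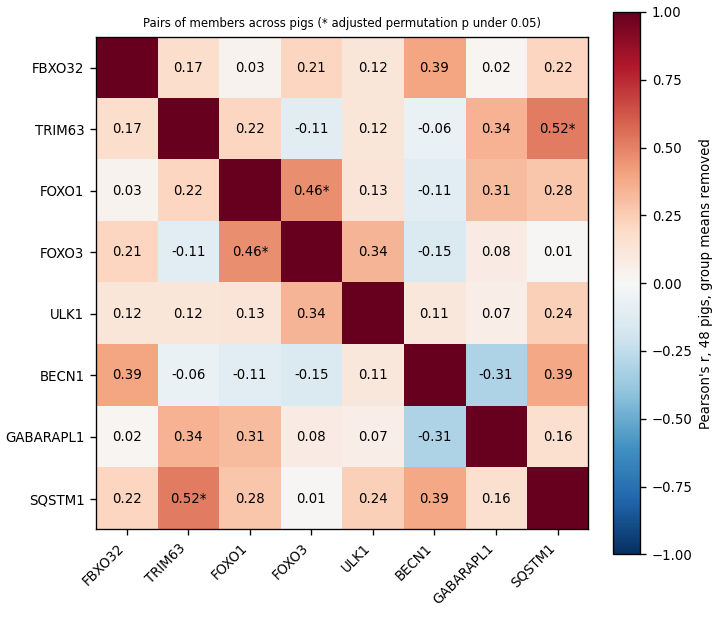
Pearson's r between members at their brightest probes over 48 pigs, group means removed, from blue (below 0) to red (above 0), with a star for an adjusted permutation p under 0.05. The starred pairs are TRIM63 with SQSTM1 at 0.52 and FOXO1 with FOXO3 at 0.46, and FBXO32 has no starred pair.

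Among 9180 other symbols, those most like FBXO32 between pigs were C2ORF49 (r = 0.51), SLC43A2 (0.50) and PIK3IP1 (0.50). The 99th percentile of r with FBXO32 was 0.36. TRIM63 was most like ZFAND5 (0.68), MYF6 (0.67) and THOC6 (0.64), where the 99th percentile was 0.44. FOXO1 was most like SAP30 (0.70), INO80E (0.64) and KLF13 (0.63), where it was 0.47. These are descriptions over 48 pigs that share arrays and slides, with no test.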

How the data were processed

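Longissimus RNA of 48 pigs was labelled with Cy3 and read on 1-colour 60K pig arrays, 8 to a slide. The authors deposited scanner output of Agilent Feature Extraction, whose processed signal is a background-subtracted intensity, and a table of log2 values. That deposited log2 table equals the log2 median spot signal minus a constant per array. Processed signals were log2 transformed, spots flagged as outliers were removed (169 missing values), and each array was centred on the mean of its 42125 kept probes, after the mean centring of the methods. Groups came from the labels. The 4 group means were fitted with limma 3.58.1 in R 4.3.3, and p-values were adjusted by Benjamini-Hochberg over all kept probes. Correlations used Python 3 with numpy and 100000 permutations.

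Members and lists were chosen with earlier results of these data known. All members were named at every kept probe, and of each pathway list at most 3 called genes, by smallest adjusted p, except 1 that is not reported here. Nothing in the labels says more of replicates than 1 pig per array.

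On simulated data with 200 changed probes, 79% of line differences of 0.5 and 95% of those of 1 were called, with 9 false calls among 42125 probes. The sign was right for 98% and 100% of them. The simulation was first required to give over 98%; it stopped at 0.5, and the requirement was lowered to 95% before its values were read, with the seed and the fit unchanged. The number of arrays limits the precision. Alternatives were scaling, background correction, filters, slide and scan day blocks, the deposited table, the methods' variance analysis for line, probe means, and each pig left out.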

Additional observations from a re-analysis of the deposited data

How the results depend on the processing

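The count of 1 member probe called between lines became 2, with GABARAPL1 added to BECN1, under 75th percentile scaling, quantile normalization, normexp, the filter for all arrays, slide as a fixed or random block, scan day as a block, the deposited table and the variance analysis of line alone. It became 0 with no filter on dim probes and with probe means. Leaving out each pig gave 1 to 2, and 12 of the 48 fits called GABARAPL1. On the LF diet the count of 0 became 1 with quantile normalization and with normexp, and was 0 to 1 with pigs left out. There it was 1 without low RFI on LF replicate 3 or without high RFI on LF replicate 3. Of the pathway probes, 24 called between lines became 12 with no filter, and 21 to 32 with pigs left out. The 0 called between diets became 1 with slide as a fixed block. The 2 correlated pairs became 3 with normexp, 4 with quantile normalization, 6 with slide means removed and 0 with probe means. The cause was not tested.

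Small uncalled differences changed sign. The line difference of FBXO32 A_72_P407903 was 0.0122 with quantile normalization and 0.0183 with normexp, that of FBXO32 O13679 was 0.0185 and that of FOXO1 A_72_P452642 0.00415 with normexp. That of ULK1 A_72_P487880 was 0.000592 at the 75th percentile and 0.00591 with the filter for all arrays. The diet difference of FOXO3 A_72_P375183 was 0.0101 at the 75th percentile, 0.00522 with quantile normalization and 0.00269 with the values as deposited. With quantile normalization, that of FOXO3 O5860 was -0.00236 and that of ULK1 A_72_P487880 -0.000153. With pigs left out, line differences ran from -0.0214 to 0.0964, -0.0696 to 0.0487, -0.120 to 0.0127 and -0.0777 to 0.0430 at FBXO32 A_72_P302954, A_72_P407903, A_72_P602453 and O13679. They ran from -0.0465 to 0.0317 at ULK1 A_72_P487880 and from -0.0223 to 0.0330 at SQSTM1. Diet differences ran from -0.0346 to 0.00116 and -0.0140 to 0.0403 at FOXO3 A_72_P375183 and O5860, from -0.0274 to 0.0508 at ULK1 A_72_P487880 and from -0.0290 to 0.0263 at SQSTM1. The FBXO32 diet difference in high RFI pigs ran from -0.172 to 0.0516 at A_72_P110111, -0.191 to 0.0201 at A_72_P302954, -0.173 to 0.0395 at A_72_P407903, -0.226 to 0.0200 at A_72_P602453 and -0.192 to 0.0464 at O13679. No paired analysis was possible because the labels give no number that pairs pigs across groups.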
